A study of Oncorhynchus mykiss with 15 samples.

Results

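The microRNAs miR-143 and miR-145 were followed through the liver of rainbow trout (Oncorhynchus mykiss) during hypoxia and reoxygenation. They were taken as every row of the small RNA table whose name carries the Atlantic salmon prefix ssa and names miR-143 or miR-145. The rule found 4 of 1213 rows: 2 rows of miR-143 and 2 rows of miR-145, which are the 5p and the 3p arm of each. All 4 had values above 0 in all 15 libraries and passed the filter on low values (a mean of at least 10). The libraries were made from liver of wild-type fish in 5 groups of 3: hypoxia for 3 h, hypoxia for 12 h, hypoxia for 24 h, reoxygenation for 3 h, and control. How long the reoxygenated fish had been hypoxic, the oxygen level and the age of the fish are not in the labels. Nor do the labels say whether a library came from a single fish or from several, so p-values measure the spread between these libraries, which may be technical.

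MicroRNAs are short RNAs cut from a hairpin precursor. A strand from either side of the hairpin, the 5p or the 3p arm, is loaded into an Argonaute protein, and its bases 2 to 8, the seed, pair with sites in messenger RNAs, which are then degraded or translated less. In mammals, miR-143 and miR-145 come from hairpins that lie side by side and can be transcribed together. There they are abundant in smooth muscle of the vessel wall and in other contractile and connective tissue cells, where they favour the contractile state. In bulk liver, fewer cells of a type and less of an RNA per cell cannot be told apart. Whether the trout hairpins lie side by side was not analysed here, as no genome was used.

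The 4 mature sequences are shown because their seeds and their pairing identify the arms. Capitals mark the seed, and each sequence was copied from the deposited table, 5′ to 3′.
ssa-miR-143-3p_R+1: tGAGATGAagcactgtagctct
ssa-miR-143-5p_R-1: gGTGCAGTgctgcatctctgg
ssa-miR-145-5p: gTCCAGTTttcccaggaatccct
ssa-miR-145-3p_L+2R-1: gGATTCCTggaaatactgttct
In the row names, L and R stand for the left and right end, with the number of bases gained or lost there. The 4 seeds differ from each other, so the members share no seed with their partner. The seeds of both miR-143 arms and of miR-145-5p occurred in no row outside miR-143 and miR-145. The seed of miR-145-3p also occurred in ssa-miR-23a-5p_R-1. RNAduplex formed 16 base pairs between the arms of miR-143 and 17 between the arms of miR-145. The GC content was 61.9% in miR-143-5p, against 45.5% in miR-143-3p, 52.2% in miR-145-5p and 40.9% in miR-145-3p.

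Another 6 rows of miR-143 or miR-145 carry the prefix of another species. Of these, 3 repeat a member's sequence and values. The cod-named gmo-miR-143-3p is a shorter form of miR-143-3p with the same seed and values of its own, and is shown for its end.
gmo-miR-143-3p: tGAGATGAagcactgtagct
This 20-base form made up 6.80% ± 1.49 (SD, n = 15 libraries) of the summed miR-143-3p values, between 4.45% and 10.3%. Its share was 7.58% ± 2.93 at 3 h, 5.80% ± 0.672 at 12 h and 6.67% ± 0.725 at 24 h of hypoxia, 6.31% ± 0.495 after reoxygenation and 7.62% ± 1.38 in control (SD, n = 3 each). The extremes, 10.3% and 4.45%, were both in the 3 h hypoxia group, so the spread inside that group covered every other group.

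The levels are the authors' deposited values, which carry no stated scale. Column totals ran from 2090585 to 6181106. The hepatocyte miRNA miR-122 took between 21.5% and 60.2% of a library, so the defining marker of liver was abundant in every library. It took at least 55.7% in all 3 libraries of 12 h hypoxia, 59.0% in library 1 of 24 h hypoxia, and 57.2% and 52.9% in libraries 1 and 3 of reoxygenation. In the other libraries it took at most 35.7%. Since totals and miR-122 moved with some groups, many results are also given on values scaled to the library total.

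miR-143-3p was the leading strand and among the most abundant miRNAs of the liver. It averaged 48568 ± 18853 (SD, n = 15 libraries), or 1.36% ± 0.563 of the library total, and ranked between 7 and 17 of all distinct profiles in each library. miR-145-5p, the leading strand of its hairpin, averaged 2192 ± 1112 and ranked between 53 and 149. miR-145-3p averaged 934.6 ± 329 and ranked between 99 and 207. miR-143-5p was the lowest at 264.5 ± 70.1, with ranks between 156 and 259. Over the 15 libraries no other range reached that of miR-143-3p, while miR-145-5p (728 to 4299) and miR-145-3p (331 to 1329) overlapped, as did miR-145-3p and miR-143-5p (167 to 437). These are levels between miRNAs of nearly equal length (21 to 23 bases), and ligation during library making is known to favour some sequences over others.

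**Figure D1:**
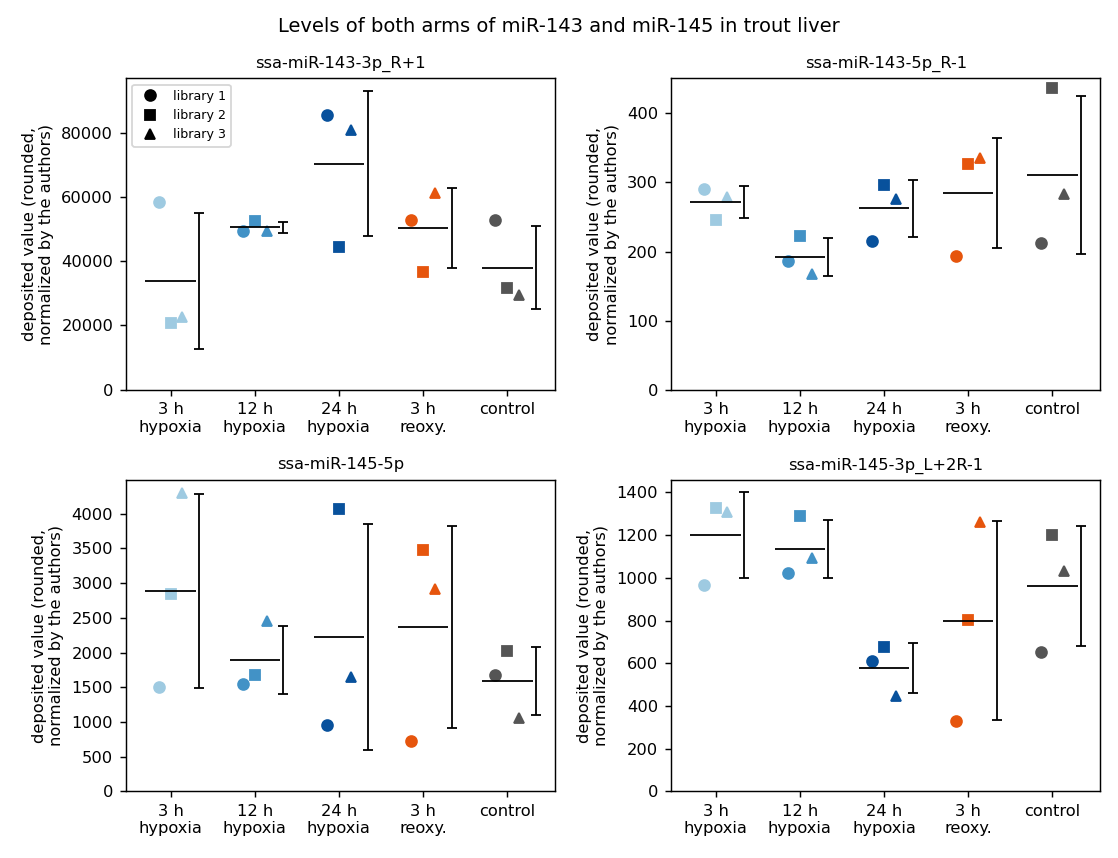
Deposited value of each of the 4 miR-143 and miR-145 rows in every library, a panel per row with a linear axis from 0, with groups along the horizontal axis, points for the 3 libraries of a group, a horizontal line for the group mean and a bracket for ± 1 SD. miR-143-3p lies between 20659 and 85559 in all 15 libraries, far above the other 3 rows, and every group overlaps the control group in every row.

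miR-143-3p had 58270, 20659 and 22758 in the libraries of 3 h hypoxia, 49399, 52540 and 49485 at 12 h, 85559, 44345 and 80892 at 24 h, and 52810, 36663 and 61267 after reoxygenation, against 52729, 31725 and 29425 in control. Libraries 1 and 3 of 24 h hypoxia were the highest of the 15, and libraries 2 and 3 of 3 h hypoxia were the lowest. The 3 libraries of 12 h hypoxia differed little from each other, and control library 1 stood well above its 2 fellows. Group means were 33896 ± 21135 at 3 h, 50475 ± 1789 at 12 h, 70265 ± 22569 at 24 h, 50247 ± 12501 after reoxygenation and 37960 ± 12842 in control (SD, n = 3 each). Each group overlapped control.

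miR-145-5p had 1506, 2849 and 4299 at 3 h of hypoxia, 1551, 1674 and 2453 at 12 h, 952, 4065 and 1655 at 24 h, and 728, 3479 and 2913 after reoxygenation, against 1676, 2024 and 1060 in control. The lowest and the second highest library, at 728 and 4065, belonged to reoxygenation and 24 h hypoxia, and both of those groups spread on either side of every control library. Group means were 2885 ± 1397 at 3 h, 1893 ± 489 at 12 h, 2224 ± 1633 at 24 h, 2373 ± 1453 after reoxygenation and 1587 ± 488 in control (SD, n = 3 each).

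miR-145-3p, the minor strand of miR-145, had 966, 1329 and 1306 at 3 h of hypoxia, 1023, 1287 and 1093 at 12 h, 609, 678 and 447 at 24 h, and 331, 802 and 1263 after reoxygenation, against 651, 1202 and 1032 in control. The 3 libraries of 24 h hypoxia lay below all 6 libraries of the shorter durations, and overlapped control only through control library 1. Group means were 1200 ± 203 at 3 h, 1134 ± 137 at 12 h, 578 ± 119 at 24 h, 799 ± 466 after reoxygenation and 962 ± 282 in control (SD, n = 3 each).

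miR-143-5p, the minor strand of miR-143, had 290, 246 and 279 at 3 h of hypoxia, 187 in library 1 and 167 in library 3 at 12 h, 216, 296 and 276 at 24 h, and 193, 327 and 335 after reoxygenation, against 213, 437 and 284 in control. Library 2 of 12 h lay between control library 1 and the lowest library of 3 h. The 12 h libraries were low and control library 2 was the highest of the 15. Group means were 272 ± 22.9 at 3 h, 263 ± 41.6 at 24 h, 285 ± 79.8 after reoxygenation and 311 ± 114 in control (SD, n = 3 each), and the 12 h mean was the lowest of the 5, with an SD of 27.8.

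No arm of miR-143 or miR-145 passed the test at any duration of hypoxia or after reoxygenation, each against control. Values were tested as log2(value + 1) with limma over 752 rows in 1 fit of all 5 groups, with Benjamini-Hochberg adjustment over those rows and a threshold of 0.05 on the adjusted p. These rows held 622 distinct profiles, and rows that repeat a profile were counted separately in the adjustment and in the shares of all rows. The count of members called was 0 of 4 in each comparison. Of all tested rows, 0% were called for 3 h of hypoxia against control, 7.18% for 12 h, 0.665% for 24 h, 2.13% for reoxygenation against control and 0% for reoxygenation against 24 h of hypoxia. On deposited values the libraries of the compared groups overlapped for 4 of 4 members each time, while 5.85%, 40.7%, 15.7%, 16.2% and 5.05% of all tested rows had groups that did not, in the same order. At an unadjusted p under 0.05 the count of members was also 0 in these 5 comparisons, against 13, 201, 100, 120 and 28 of all rows in the same order. An F-test over the 5 groups called 0 of 4 members and 6.38% of all rows, and the smallest adjusted p of a member was 0.250. Scaled to the library total, all 12 h libraries lay below control for miR-143-3p (0.858% to 0.911% against 1.20% to 1.41%). So they did for miR-143-5p (0.00290% to 0.00385% against 0.00486% to 0.0175%). The share of all rows with such a separation was not computed on that scale, so these separations cannot be set against other rows. The median log2 difference of all rows there was -1.19, against -0.56 for miR-143-3p and -1.66 for miR-143-5p. With 3 libraries a group these results bound the changes but do not show that levels were equal.

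The nearest to a call against control was miR-143-3p at 24 h, with a log2 difference of 0.88 ± 0.42 (SE) in limma, which is 1.84-fold with a 95% interval from 0.996 to 3.40. Its unadjusted p was 0.0515 and its adjusted p 0.369, and 2 of the 3 libraries at 24 h were above every control library. On values scaled to the library total it was 0.47 (limma adjusted p = 0.545). miR-145-3p went the other way at 24 h, with a log2 difference of -0.71 ± 0.44 (0.612-fold, 95% interval 0.321 to 1.17, limma adjusted p = 0.495). Scaled to the library total that difference was -1.11 (limma adjusted p = 0.369). The median of all rows at 24 h against control was -0.55 on that scale and -0.16 as deposited. The 24 h differences of miR-145-5p (0.28) and miR-143-5p (-0.19) were well inside their errors of 0.62 and 0.38.

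At 3 h of hypoxia the log2 differences from control were -0.28 for miR-143-3p, -0.14 for miR-143-5p, 0.79 for miR-145-5p and 0.35 for miR-145-3p, each with a limma adjusted p of 0.995. The largest, miR-145-5p, was 1.72-fold with a 95% interval from 0.692 to 4.30, the widest of the 4 members. At 12 h the differences were 0.46 for miR-143-3p, -0.64 for miR-143-5p, 0.27 for miR-145-5p and 0.28 for miR-145-3p, with limma adjusted p-values from 0.284 to 0.817. Scaling to the library total turned 3 of these round, to -0.56 for miR-143-3p, -0.74 for miR-145-5p and -0.74 for miR-145-3p, while miR-143-5p stood at -1.66 (limma adjusted p = 0.0669). That put the median of all tested rows at -1.19, against -0.20 as deposited, so on that scale 3 of the 4 members lay above the median row and miR-143-5p below it. After a correction for the GC content of each sequence, miR-143-5p stood at 1.05 (limma adjusted p = 0.148). No direction at 12 h is therefore given for any of the 4 members.

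After reoxygenation the log2 differences from control were 0.42 for miR-143-3p, -0.11 for miR-143-5p, 0.35 for miR-145-5p and -0.42 for miR-145-3p, with limma adjusted p-values from 0.653 to 0.923. Scaled to the library total they were 0.01, -0.52, -0.066 and -0.83 in the same order, with limma adjusted p-values from 0.502 to 0.981. The median of all rows was -0.52 on that scale and -0.11 as deposited. Reoxygenation against 24 h of hypoxia gave -0.46 for miR-143-3p, 0.09 for miR-143-5p, 0.07 for miR-145-5p and 0.29 for miR-145-3p, with limma adjusted p-values from 0.963 to 0.991. The mean of miR-143-3p was 50247 after reoxygenation and 70265 at 24 h of hypoxia, a difference smaller than the spread between the 24 h libraries.

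**Figure D2:**
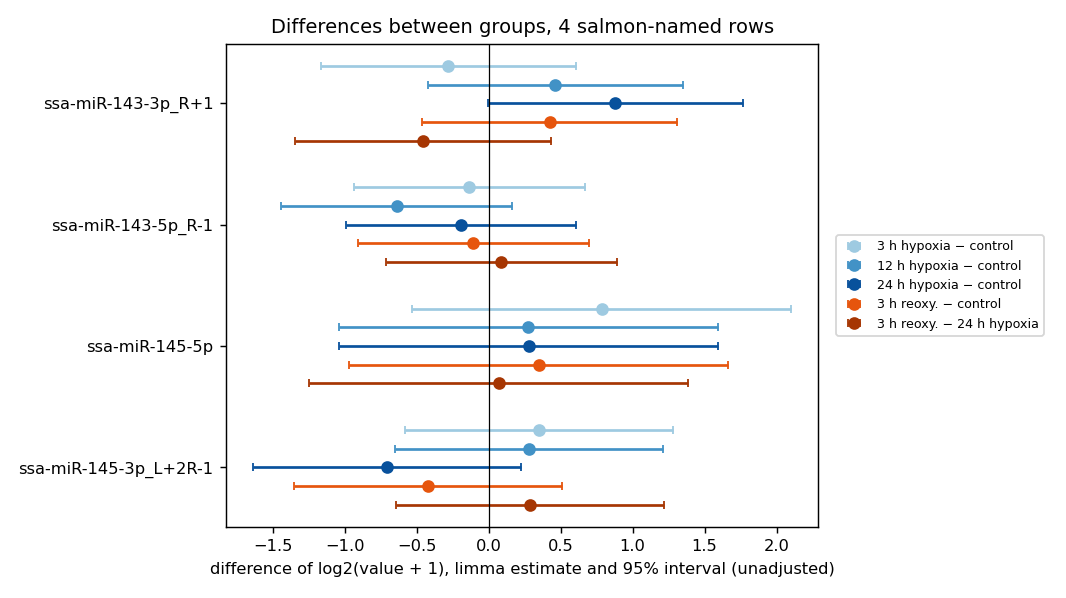
Log2 difference of each of the 4 rows in the 4 comparisons with control and in reoxygenation against 24 h hypoxia, from limma on log2(value + 1); points are estimates and bars are 95% intervals. Every interval crosses 0, the closest being miR-143-3p at 24 h against control (0.88).

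The comparisons between durations of hypoxia were chosen after the data were seen. Between 24 h and 3 h, miR-143-3p had a log2 difference of 1.16 ± 0.42 and miR-145-3p one of -1.06 ± 0.44, with limma unadjusted p-values of 0.0137 and 0.0283 and adjusted p-values of 0.112 and 0.164. The members called were 0 of 4, with 4.92% of all rows called. On values scaled to the library total these differences were 0.52 and -1.70 (limma adjusted p = 0.384 and 0.109). There the median of all rows was -0.88, against -0.24 as deposited. Library 1 of 3 h hypoxia had a miR-143-3p value of 58270, far above its 2 fellows. Without it the miR-143-3p difference was 1.64 and passed (limma adjusted p = 0.0443). That library is singled out by the value under test, so this pass is no support for a change. Among 27 alternative settings it was the only 1 in which this difference passed, and the share of all rows called there was not computed. Between 24 h and 12 h, miR-145-3p had a log2 difference of -0.99 ± 0.44 (0.505-fold, limma unadjusted p = 0.0392, adjusted p = 0.256). There 0 of 4 members and 0% of all rows were called, with 128 of all rows at an unadjusted p under 0.05. Between the same durations miR-143-3p stood at 0.42 as deposited and at 1.03 scaled to the library total (limma adjusted p = 0.635 and 0.227). Scaled to the library total the difference of miR-145-3p was -0.37, and after a GC correction -0.40 (limma adjusted p = 0.795 and 0.849). The median of all rows was 0.62 scaled, -0.02 after the GC correction and 0.05 as deposited. On the scaled values miR-145-3p therefore still lay below the median row. On deposited values the 24 h libraries of miR-145-3p overlapped neither the 3 h nor the 12 h libraries, and 17.3% and 14.2% of all tested rows were likewise lower in every 24 h library. As a share of the total, library 2 of 24 h (0.0222%) lay inside the 12 h range of 0.0178% to 0.0223%.

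Between 12 h and 3 h of hypoxia 0 of 4 members were called, against 16.8% of all rows. miR-143-5p was lower in all 3 libraries of 12 h than in any of 3 h, with a log2 difference of -0.50 (limma adjusted p = 0.378), and 30.1% of all rows showed such a separation. After scaling to the total its difference was -1.75 and passed (limma adjusted p = 0.0382), where the median of all rows was -1.46. The share of all rows called on that scale was not computed, so this call cannot be set against other rows. On that scale miR-145-5p stood at -1.77 and miR-145-3p at -1.33, against -0.51 and -0.07 as deposited. Neither passed when scaled (limma adjusted p = 0.0994 and 0.102). After a correction for the GC content of each sequence, miR-143-5p stood at 1.03 (limma adjusted p = 0.0859). Scaled without miR-122 the difference of miR-143-5p was -1.04, and with quantile normalization -0.32. Its direction was therefore kept by these scalings and reversed only by the GC correction, and why was not tested.

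The balance of the arms does not depend on a scale shared by all rows of a library. A correction by GC content can change it. miR-143-3p exceeded miR-143-5p between 78.7-fold and 425-fold, forms of an arm summed. Its mean log2 ratio of 3p over 5p came to 6.91 ± 0.78 with 3 h of hypoxia, 8.13 ± 0.16 with 12 h, 8.11 ± 0.73 with 24 h, 7.56 ± 0.65 after reoxygenation and 7.05 ± 0.89 in control (SD, n = 3 each). The ratio was higher by 1.07 at 12 h and by 1.06 at 24 h than in control, with overlapping groups and a p of 0.2 each in a two-sided exact permutation test, which with 3 libraries against 3 cannot go below 0.1. Of 82 miRNAs with both arms tested, 22 had a larger difference than miR-143 at 12 h against control. The miR-143 ratio was higher in all 3 libraries of 12 h than in any of 3 h (difference 1.22, exact permutation p = 0.1, adjusted p = 0.45 over 9 such tests). The share of the 82 with such a separation was not computed. The ratios were not recomputed with the GC correction. With it, the log2 differences of miR-143-3p and miR-143-5p from control were 0.45 and 1.05 at 12 h, and 0.96 and 0.33 at 24 h. Between 12 h and 3 h they were 0.82 and 1.03. The differences in ratio at 12 h are therefore given only for values without that correction, and against control the groups overlapped.

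In miR-145 the 5p arm led in every library, and the 3p arm amounted to between 0.167 and 0.972 of it. This ratio averaged -1.15 ± 0.54 on the log2 scale with 3 h of hypoxia, -0.71 ± 0.41 with 12 h, -1.70 ± 0.98 with 24 h, -1.49 ± 0.55 after reoxygenation and -0.72 ± 0.66 in control (SD, n = 3 each). The arm balance was therefore steep in miR-143 and shallow in miR-145: of 82 miRNAs with both arms tested, 12 had a more lopsided mean ratio than miR-143 and 67 a more lopsided one than miR-145. Their ratios varied over the 15 libraries with an SD of 0.79 for miR-143 and 0.69 for miR-145, against a median SD of 1.01, with 21 and 13 of the 82 steadier. Between 24 h and control the log2 ratio differed by 1.06 in miR-143 and by -0.98 in miR-145 (exact permutation p = 0.2 and 0.3). The groups overlapped in both. With 3 libraries against 3 this p cannot go below 0.1, so the test could not call either. Of the 82, 15 had a larger difference than miR-143 and 11 a lower one than miR-145.

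The leading strands of the hairpins were also set against each other. miR-143-3p over miR-145-5p varied between 5.75-fold and 96.8-fold, and both extremes were under hypoxia (library 3 of 3 h and library 1 of 24 h). Its mean log2 value was 3.62 ± 1.57 at 3 h, 4.85 ± 0.37 at 12 h, 5.28 ± 1.58 at 24 h, 4.75 ± 1.41 after reoxygenation and 4.69 ± 0.53 in control (SD, n = 3 each). With 3 libraries against 3 the exact permutation p cannot go below 0.1. None of the 15 ratio tests against control or against 24 h hypoxia could therefore pass, whatever the values. Their smallest adjusted p was 0.75, and the groups overlapped in each. The spread inside the 3 h, 24 h and reoxygenation groups was larger than any difference between group means except that between 24 h and 3 h, which was 1.66 (exact permutation p = 0.2).

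**Figure D3:**
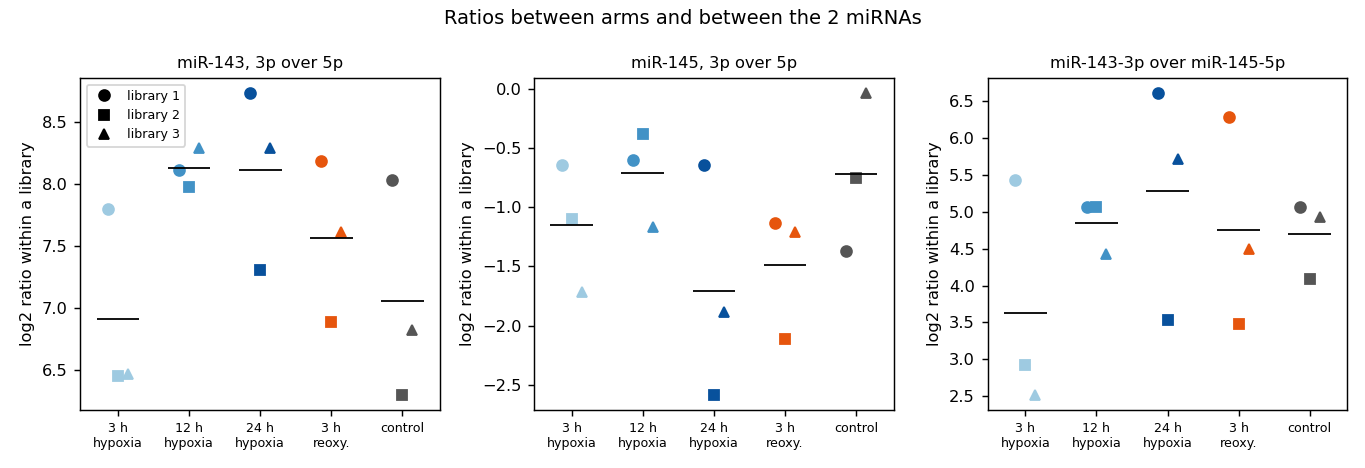
Log2 ratio within each library of miR-143 3p over 5p, miR-145 3p over 5p and miR-143-3p over miR-145-5p, forms of an arm summed, by group; points are the 3 libraries and horizontal lines the group mean. miR-143 stays between 78.7-fold and 425-fold in favour of 3p, miR-145 stays below 1-fold for 3p over 5p, and miR-143-3p over miR-145-5p spreads from 5.75-fold to 96.8-fold.

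Over the 15 libraries miR-143-3p was negatively related to both arms of miR-145 on deposited values, and neither relation passed after adjustment. On those values, Pearson's r of log2(value + 1) was -0.46 between miR-143-3p and miR-145-5p (Spearman's rho -0.49; permutation p = 0.0832 and 0.0644, adjusted p = 0.166 and 0.129 over 10 pairs). Between miR-143-3p and miR-145-3p it was -0.55 (rho -0.60; permutation p = 0.0337 and 0.0195, adjusted p = 0.112 and 0.0777). Without the 2 libraries farthest from the median of miR-143-3p, both of 3 h hypoxia, r was -0.23 and -0.41, so the size of the first rests in part on them. Of 252 other ssa profiles, 81.7% had a higher r with miR-143-3p than miR-145-5p had, and 91.3% had a higher r with miR-145-5p than miR-143-3p had. Scaled to the library total, r was 0.11 and -0.04 (permutation adjusted p = 0.841 and 0.897 over 6 pairs). As deviations from the group means of the deposited values, it was -0.54 and -0.35.

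On deposited values the r between the arms was above 0 in miR-145 and below 0 in miR-143, and neither passed. The 5p and 3p arms of miR-145 had an r of 0.51 on deposited values (rho 0.51; permutation p = 0.0542 and 0.0534, adjusted p = 0.136 and 0.129), and 0.60 without the 2 libraries farthest from the median of miR-145-5p. The arms of miR-143 had an r of -0.29 (rho -0.21; permutation p = 0.302 and 0.458, adjusted p = 0.377 and 0.458), and -0.38 without 2 libraries. That sign turned with the scale: r between the arms of miR-143 was 0.45 scaled to the library total (permutation adjusted p = 0.136), 0.36 as scaled deviations from the group means and 0.20 after the GC correction. miR-143-5p had an r of 0.39 with miR-145-5p and of 0.26 with miR-145-3p (rho 0.43 and 0.23; permutation adjusted p = 0.250 and 0.385 for r). The library total itself had an r of 0.62 with miR-143-3p (rho 0.59; permutation adjusted p = 0.0760 and 0.0777) and of -0.72 with miR-143-5p (rho -0.65; permutation adjusted p = 0.0255 and 0.0777), the only pair of the 10 whose r passed. Without the 2 libraries farthest from the median of miR-143-5p the last was -0.69 and no longer passed (permutation adjusted p = 0.124).

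After scaling to the total, the relations among the 3 lower rows passed the permutation test over all 15 libraries. That test shuffled libraries without regard to group, so its p cannot separate a relation from differences shared by groups. Each row was also divided by the same total, so a small p does not mark a relation particular to these rows. Pearson's r was 0.78 between the arms of miR-145, 0.77 between miR-145-5p and miR-143-5p, and 0.76 between miR-145-3p and miR-143-5p (rho 0.74, 0.69 and 0.71; permutation adjusted p = 0.0027, 0.0027 and 0.00272 over 6 pairs, with 0.011, 0.0119 and 0.0119 for rho). On this scale most profiles were alike: the median r of the 252 other profiles was 0.45 with miR-145-5p, 0.49 with miR-145-3p and 0.56 with miR-143-5p, and 22 of them had a higher r with miR-145-5p than miR-145-3p had. With miR-143-5p, 61 of the 252 had a higher r than miR-145-5p had, and 68 a higher one than miR-145-3p had. In the other direction, 25 had a higher r with miR-145-5p than miR-143-5p had, and 28 with miR-145-3p. On scaled values the first libraries of 24 h hypoxia and of reoxygenation are the 2 farthest from the median of miR-145-5p. On deposited values the 2 farthest were library 3 of 3 h hypoxia and library 2 of 24 h hypoxia. Without the first libraries of 24 h hypoxia and of reoxygenation, r of the scaled values in the same order was 0.59, 0.72 and 0.71. The first did not pass and the others did (permutation adjusted p = 0.0669, 0.0234 and 0.0234), while rho passed for none (0.0638 each). After the GC correction r was 0.53, 0.60 and 0.11, and none passed (permutation adjusted p = 0.0968, 0.0968 and 0.720). On deposited values without the first libraries of 24 h hypoxia and of reoxygenation r was 0.14, 0.21 and 0.02. As scaled deviations from the group means, r was 0.81 between the arms of miR-145, 0.78 between miR-145-5p and miR-143-5p, and 0.88 between miR-145-3p and miR-143-5p.

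The scaled values of miR-143-5p fell into separate sets of libraries, a split seen in the data and not part of the design. In 6 libraries it was between 0.00290% and 0.00486% of the library total, and in 9 between 0.00795% and 0.0175%. The 6 were all libraries of 12 h hypoxia, library 1 of 24 h hypoxia, library 1 of reoxygenation and control library 1, and were the 6 with the largest totals (4385366 and above, against at most 4214194). Within the 6 and within the 9, r of the scaled values was -0.08 and 0.01 between miR-143-5p and miR-145-5p, and -0.27 and 0.52 between miR-143-5p and miR-145-3p. Since the sets were split by miR-143-5p itself, its range inside each is narrower by construction, and a lower r there shows nothing about the relation over all libraries. Between the arms of miR-145 r was 0.81 in the 6 and 0.23 in the 9. Between miR-143-3p and miR-145-5p it was -0.56 and -0.62, and between miR-143-3p and miR-145-3p -0.68 and -0.71. These values within sets are a description without a test.

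**Figure D4:**
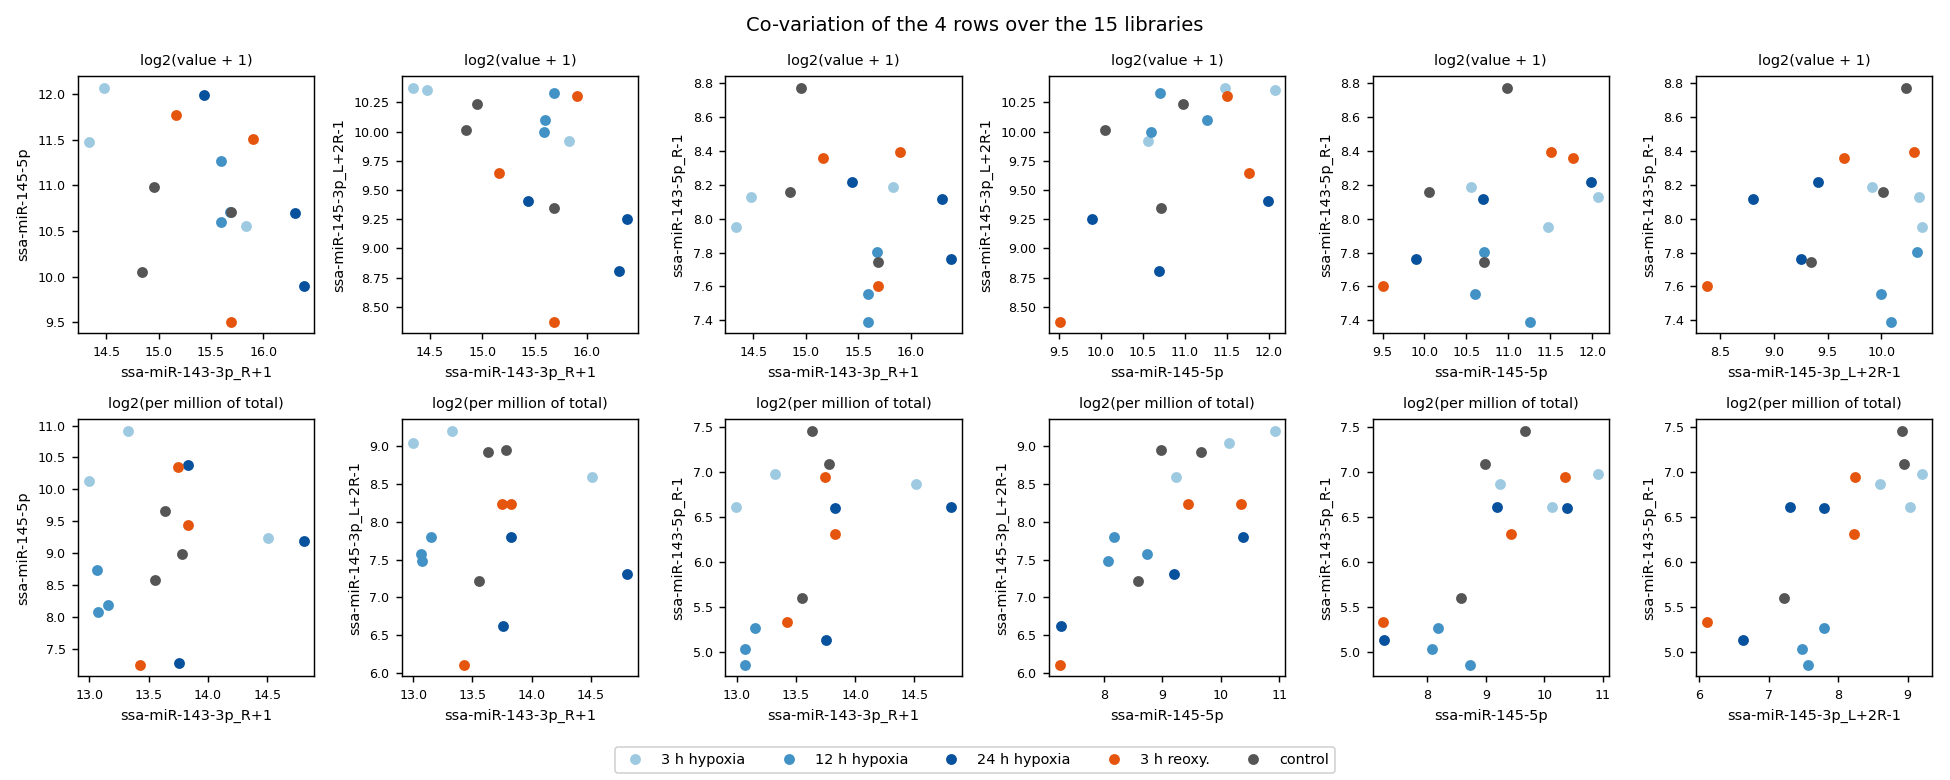
Pairs of the 4 rows over the 15 libraries on log2 axes, deposited values in the upper panels and values scaled to the library total in the lower panels, each point a library coloured by its group. On deposited values miR-143-3p and miR-145-5p have an r of -0.46, and scaled to the total 0.11, while the arms of miR-145 have an r of 0.51 and 0.78.

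The profiles most like the leading strands were other miRNAs than the partner. Among 252 ssa profiles with a mean of at least 10, the 5 with the highest Pearson r over the 15 libraries to miR-143-3p were ssa-miR-22a-3p (0.78), ssa-miR-1338-5p_R+1_1ss14CT (0.75), ssa-miR-101a-3p (0.72), ssa-miR-455-5p (0.71) and ssa-miR-26a-3-3p (0.71). Those most like miR-145-5p were ssa-miR-19d-3p (0.83), ssa-miR-338a-3-5p (0.77), ssa-miR-30a-5p (0.70), ssa-miR-23a-3p_R+1 (0.67) and ssa-miR-454-3p_R-2 (0.66). Scaled to the library total, the first 5 for miR-143-3p were ssa-miR-16a-3p_1ss10TC (0.70), ssa-miR-375-3p (0.69), ssa-miR-30e-3p (0.65), ssa-miR-194a-3p_R-1 (0.65) and ssa-miR-15d-3p_R-3 (0.62), none of which was in its list on deposited values. For miR-145-5p they were ssa-miR-19d-3p (0.91), ssa-miR-30d-5p_1ss19AG (0.89), ssa-miR-30a-5p (0.88), ssa-miR-23a-3p_R+1 (0.88) and ssa-miR-150-5p_R+2 (0.86), so miR-19d-3p, miR-30a-5p and miR-23a-3p_R+1 were among the first 5 on both scales. These are descriptions over libraries that differ in total and in group, without a test.

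miRNAs known from vessel wall and connective tissue in other vertebrates (miR-199, miR-214, miR-221, miR-222 and miR-10) were read beside them. Of 15 tested profiles 0 were called in any of the 5 comparisons, in which between 0% and 7.18% of all rows were called. The median log2 differences of these profiles from control were 0.01 for 3 h of hypoxia, 0.17 for 12 h, -0.11 for 24 h and -0.01 for reoxygenation. The summed share of these miRNAs in a library was 4.12% to 5.07% at 3 h, 1.48% to 1.75% at 12 h, 1.68% to 3.54% at 24 h, 1.69% to 3.88% after reoxygenation and 2.87% to 5.01% in control. Their summed deposited values overlapped, at 85273 to 101150 at 12 h and 85518 to 125890 in control. The 2 most abundant rows of this list were the arms of miR-199a. ssa-miR-199a-5p averaged 28373 ± 6675 at 12 h and 54392 ± 21259 in control, while ssa-miR-199a-3p averaged 23960 ± 2179 at 12 h and 16307 ± 1204 in control (SD, n = 3 each), with limma adjusted p-values of 0.210 and 0.344. With miR-143-3p, the r over the 15 libraries was 0.68 for miR-199a-3p and -0.36 for miR-199a-5p, and with miR-145-5p it was -0.48 and 0.60.

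The endothelial miRNA miR-126, which sustains vessel integrity in zebrafish and mammals, was higher at 12 h of hypoxia than in control in both arms, its only 2 tested profiles, against 5.19% of all rows called higher. ssa-miR-126-3p averaged 41255 ± 4217 at 12 h and 9523 ± 7019 in control, a log2 difference of 2.36 ± 0.63 (limma adjusted p = 0.0360). ssa-miR-126-5p averaged 2944 ± 108 at 12 h and 749 ± 266 in control, a log2 difference of 2.03 ± 0.46 (limma adjusted p = 0.0186). In the other 4 comparisons neither arm was called. Scaled to the library total both differences kept their sign, at 1.34 and 1.01, and no longer passed (limma adjusted p = 0.0564 and 0.110). Neither passed when scaled without miR-122 (limma adjusted p = 0.0605 and 0.0658) or after the GC correction (0.110 and 0.0859), and miR-126-3p did not pass with quantile normalization (0.0669) or without the variance trend (0.0659). Leaving out any library of 12 h or control library 2 also ended both calls, as did control library 3 and library 3 of 3 h hypoxia for miR-126-3p, with limma adjusted p up to 0.160 for miR-126-3p and 0.0886 for miR-126-5p.

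At 12 h of hypoxia against control, 5.19% of all rows were called higher. Of striated muscle miRNAs (miR-1, miR-133, miR-206 and miR-499), 1 of 3 tested profiles was called higher at 12 h and 0 in the other 4 comparisons. It was ssa-miR-499b-5p_R-1, with 2299 ± 1037 at 12 h and 481 ± 98.8 in control, a log2 difference of 2.18 ± 0.45 (limma adjusted p = 0.0120), which was 1.16 and no longer passed when scaled to the total (limma adjusted p = 0.0753). After the GC correction it was 1.14 and did not pass (limma adjusted p = 0.183). Without control library 2 or library 2 of 12 h it did not pass (limma adjusted p = 0.0557 and 0.0626). ssa-miR-133b-3p_L-1R+2 averaged 38.3 ± 16.2 at 12 h and 80.7 ± 28.6 in control (limma adjusted p = 0.213). The striated muscle rows together held at most 0.0612% of any library.

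Hepatocyte miRNAs (miR-122, miR-192 and miR-194) had 0 of 8 profiles called in the 5 comparisons and held 22.4% to 61.2% of a library. Of all rows, between 0% and 7.18% were called in these comparisons, so a count of 0 in so short a list says little. The 2 most abundant were ssa-miR-122-5p_R-1, with a log2 difference of 1.97 at 12 h against control (limma adjusted p = 0.0645), and ssa-miR-192a-5p_R+1, with 0.71 (limma adjusted p = 0.338). Red blood cell miRNAs (miR-144, miR-451 and miR-486) were represented by the 2 arms of miR-144, since no ssa row of miR-451 or miR-486 was tested. Neither arm was called in the 5 comparisons, and their share was between 0.00116% and 0.0324% of a library. ssa-miR-144-5p_R-1 averaged 303.3 and ssa-miR-144-3p_R+1 70.8 over the 15 libraries.

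White blood cell miRNAs (miR-142, miR-150, miR-155 and miR-223) had 0 of 7 profiles called in the 5 comparisons, against 0% to 7.18% of all rows. They held between 0.0475% and 0.275% of a library. ssa-miR-150-5p_R+2, the most abundant, averaged 3277 ± 1958 at 24 h and 2860 ± 1202 in control, and ssa-miR-155-5p averaged 525 ± 433 at 24 h and 930 ± 707 in control (SD, n = 3 each). Where the shares of these lists moved with a group, their part in the values of miR-143 and miR-145 was not tested.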

How the data were processed

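Small RNA libraries of trout liver (Trizol extraction, Illumina sequencing, per the labels) were read from 1 table deposited by the authors. Its values are a score: the deposited numbers are normalized values in whole numbers, on a scale that neither labels nor header state. The table is called TPM, but totals differ between libraries, so reads per value, depth and counting intervals are unknown. The authors also deposited p-values, without naming the test. In the authors' deposited table the p-value was 0.124 for miR-143-3p, 0.325 for miR-143-5p, 0.734 for miR-145-5p and 0.1 for miR-145-3p, and it was not used further. The aligner, the miRNA reference and any filter: not given in the sources used here.

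Rows with a mean of at least 10 (752 of 1213) were fitted as log2(value + 1) with limma 3.58.1 in R 4.3.3, with trended variance and 5 groups in 1 fit, and checked on simulated data. This scale understates changes of low rows. Library totals count each distinct profile once. Ratios were tested by exact permutation, correlations with 100000 permutations (numpy 2.4.6, scipy 1.17.1), and arms paired with RNAduplex of ViennaRNA 2.7.2. The permutations of the correlations shuffled libraries over all groups. Alternatives were other pseudocounts, no filter, scaling to the total with and without miR-122, quantile normalization, a GC correction (lowess span 0.5), no variance trend, a replicate block, only the compared groups, summed forms and leaving libraries out. Comparisons between durations of hypoxia, relations with the library total and several combinations were added after seeing the data. The members, companion lists (vessel wall, endothelium, striated muscle, hepatocyte, red and white blood cells) and tests were chosen with earlier results of these data known. Named rows are all 4 members, the 5 profiles most like each leading strand, the 2 most abundant rows of each list, and rows called in a list.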

Additional observations from a re-analysis of the deposited data

Results flagged for a closer look

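A longer form of miR-145-5p outside the 4 rows, xtr-miR-145_L+2R-1, was above all 3 control libraries in 4 libraries. It starts 2 bases upstream of ssa-miR-145-5p, which moves its seed, and is shown with that seed in capitals.
xtr-miR-145_L+2R-1: aAGTCCAGttttcccaggaatccct
Library 3 of 3 h hypoxia had 35 and library 2 of 24 h hypoxia had 23, whereas the control libraries had 0, 0 and 3. Library 3 of 12 h hypoxia had 6 and library 2 of reoxygenation had 5. The libraries at 35 and 23 are the 2 libraries with the highest miR-145-5p values, 4299 and 4065. Its mean of 4.8 over the 15 libraries kept it out of the tested rows, and it was at 0 in 10 of them.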

How the results depend on the processing

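Log2 differences and counts of calls were recomputed under every alternative. The ratios within a library were recomputed with a pseudocount of 10, with the most abundant row of each arm and with each library left out, and the correlations under the settings given below and with each library left out. The count of members called stayed at 0 in the 5 comparisons set out and in the F-test, under every alternative. It became 1 in the added comparison of 12 h against 3 h hypoxia, scaled to the total. In the added comparison of 24 h against 3 h it became 1 without library 1 of 3 h hypoxia (0 to 1 over the libraries left out). The share of all rows called in those settings was not computed, so neither count can be set against other rows. The labels do not say whether the replicate numbers pair the libraries. Deviations of same-numbered libraries had correlations from -0.288 to 0.535 (median 0.0184, 11 of 30 above 0.1). The median between libraries of different numbers was -0.00432. In 8 of 15 libraries the best correlation was with their own number, and whether that exceeds chance was not tested. With the replicate block the count was 0 in each comparison. Depth is unknown, so what it limits cannot be given, and the cause of the changes below was not tested.

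On values scaled to the library total, log2 differences changed sign for miR-143-5p at 3 h (0.10), for miR-143-3p (-0.56), miR-145-5p (-0.74) and miR-145-3p (-0.74) at 12 h, for miR-145-5p at 24 h (-0.13) and after reoxygenation (-0.066), and for miR-143-3p at 12 h against 3 h (-0.51). Scaled without miR-122, they did so for miR-143-5p at 3 h (0.091) and for miR-145-5p (-0.031) and miR-145-3p (-0.028) at 12 h. Quantile normalization turned reoxygenation against 24 h round for miR-145-5p (-0.18) and miR-143-5p (-0.21). The GC correction turned miR-143-5p round against control at 3 h (0.023), 12 h (1.05), 24 h (0.33) and reoxygenation (0.93), and between 12 h and 3 h (1.03), 24 h and 12 h (-0.72) and 24 h and 3 h (0.31). It also turned miR-145-3p at 12 h (-0.15), and miR-145-5p between 12 h and 3 h (0.088) and 24 h and 12 h (-0.49). Leaving out the first libraries of 24 h hypoxia and of reoxygenation, sign changed for miR-145-3p (0.11) and miR-143-5p (0.15) after reoxygenation and for miR-143-5p between 24 h and 3 h (0.077). A pseudocount of 10 gave 0.00238 for the miR-143 arm ratio between 24 h and 12 h.

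With each library left out in turn, these log2 differences changed sign. For miR-143-5p they ranged from -0.38 to 0.14 at 3 h, -0.43 to 0.082 at 24 h, -0.35 to 0.17 after reoxygenation, -0.051 to 0.35 for reoxygenation against 24 h and -0.15 to 0.077 for 24 h against 3 h. For miR-145-5p they ranged from -0.29 to 0.76 at 24 h, -0.073 to 1.05 after reoxygenation, -0.41 to 0.78 for reoxygenation against 24 h and -0.56 to 0.48 for 24 h against 12 h. For miR-145-3p they ranged from -0.85 to 0.11 after reoxygenation, -0.14 to 0.82 for reoxygenation against 24 h and -0.22 to 0.0074 for 12 h against 3 h. The miR-143 arm ratio ranged from -0.59 to 0.35 at 3 h and -0.33 to 0.39 for 24 h against 12 h. The miR-145 arm ratio ranged from -0.32 to 0.34 at 12 h and -0.22 to 0.75 for reoxygenation against 24 h. The ratio of miR-143-3p to miR-145-5p ranged from -0.14 to 0.38 at 12 h, -0.068 to 1.46 at 24 h, -0.70 to 0.69 after reoxygenation, -1.40 to 0.13 for reoxygenation against 24 h and -0.23 to 1.30 for 24 h against 12 h.

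For the correlations, miR-143-3p with miR-145-5p was 0.11 scaled to the total, 0.13 scaled without the 2 libraries farthest from the median and 0.12 scaled without library 1 of 24 h hypoxia and of reoxygenation. In the same order miR-143-3p with miR-143-5p was 0.45, 0.45 and 0.50, miR-145-5p with miR-143-5p 0.77, 0.72 and 0.72, and miR-145-3p with miR-143-5p 0.76, 0.74 and 0.71. The arms of miR-145 were at 0.78 scaled. As scaled deviations from group means, miR-143-3p had 0.10 with miR-145-3p and 0.36 with miR-143-5p, the arms of miR-145 had 0.81, and miR-143-5p had 0.78 with miR-145-5p and 0.88 with miR-145-3p. As unscaled deviations the last was 0.72. The GC correction gave 0.20 between the arms of miR-143. With the library total, miR-145-3p had 0.071 and miR-143-5p -0.69 without the 2 named libraries, and miR-143-5p -0.69 without the 2 farthest ones.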
